A study of Drosophila melanogaster with 2 samples.

Results

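The peaks described here are candidate sites of the pair-rule zinc-finger protein Odd skipped (Odd) that lay inside exons and away from the start of any transcript. They are the peaks of the relaxed list of the pooled replicates, on the dm6 genome build, whose summit fell in coding, 5' untranslated or 3' untranslated sequence and more than 500 bp from every annotated transcription start site (TSS). Of the 30000 peaks of that list, 1188 (3.96%) met this rule, in 1052 separate regions and 856 host genes, the host being the gene whose exon holds the summit. Among them 326 summits lay in coding sequence, 580 in 3' untranslated and 282 in 5' untranslated sequence. A further 2704 exonic summits lay within 500 bp of a TSS and were not members.

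Chromatin came from whole Drosophila melanogaster embryos of both sexes, aged 0 to 16 h, of a transgenic line that carries Odd with green fluorescent protein (GFP) at its C terminus. An antibody against GFP recovered the protein with its DNA after sonication to fragments of 200 to 800 bp. There was 1 group of 2 biological replicates from 1 line, and the tagged protein stood in for the endogenous one. No untagged embryos, second condition or control library were analysed here, and since whole embryos were used, the cells that carried a site cannot be named. Read depth is unknown, because the lists hold peaks and not reads.

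Segmentation proteins of the fly such as Odd are known mostly for acting through enhancers and promoters, stretches of DNA that lie outside the spliced message. Exons are also DNA that can be bound: an exon of one transcript is often an intron of another, a 5' untranslated exon can lie beside a second promoter, and enhancers that overlap coding exons are known. A summit in an exon says where DNA was recovered and not which gene, if any, it acts on.

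The relaxed lists include background peaks by design. The filter used by the authors was the irreproducible discovery rate (IDR), which keeps peaks that repeat between replicates, and the 4291 peaks of the pooled IDR list were the strongest of the pooled relaxed list by the authors' signal value. Of the exonic peaks 80 were in the IDR list, in 77 host genes and 79 regions, a share of 6.73% (exact 95% interval 5.38 to 8.31) against a background of 14.3% over the whole list. Intervals here cover the counting of peaks and not the spread between embryos, neighbouring summits share fragments, and with 1 group of 2 replicates no test across samples could be made.

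The DNA under the coding summits is shown for 8 of the 10 strongest coding peaks of the IDR list, since at these sites the summit lies in protein-coding sequence. Each line runs 5' to 3' on the strand of the host gene with the summit at its middle base, on dm6, read from NCBI Release 6, and the codon that holds the summit is in capitals. The nearer exon edge lay 5 bp from the summit in TpnC73F and 9 bp in l(3)mbn and CG4230. These lines therefore run past the exon into intron, at the start for TpnC73F and CG4230 and at the end for l(3)mbn.
Pde1c, chr2L:11816557-11816585, minus strand: ggagccggcagatGGCgctgcggcctaag
l(3)mbn, chr3L:6124802-6124830, minus strand: atacaccaaccggaAATgtaccctgtaag
CG4230, chr2L:5097028-5097056, plus strand: tcaagcagctctTCCgtttccgcttccaa
CG5895, chr3L:16037107-16037135, plus strand: cttttgtcatggctAACcgcgattatgta
bif, chrX:11681804-11681832, plus strand: tccaataccaatTCCgattccactggagg
bun, chr2L:12498721-12498749, minus strand: aatggctgccaatATGgcgacgaccagca
Tim17b1, chr3R:5300787-5300815, plus strand: ttattcggcggatTCCtaccgccaggtgt
TpnC73F, chr3L:17047956-17047984, plus strand: aatttacagaattcATGgagatgatgact

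Pde1c encodes a calcium-dependent cyclic nucleotide phosphodiesterase, bif a protein that binds actin, bun a homologue of the mammalian TSC-22 regulators, Tim17b1 a subunit of the mitochondrial import channel and TpnC73F a troponin C of muscle. In the host transcript with the longest coding sequence over the summit, the summit of Pde1c lay at codon 1170 of 1173 and that of TpnC73F at codon 149 of 155. That of CG5895 lay at codon 441 of 453, while those of CG4230 and bun lay at codons 19 of 386 and 12 of 254, and that of bif at codon 121 of 1305. These 6 summits therefore lay within 10% of an end of the coding sequence, and those of l(3)mbn, at codon 421 of 653, and Tim17b1, at codon 140 of 179, did not. The summit of bun lay in an exon of only 1 of the 10 coding transcripts of the gene and was intronic in at least 1 other. That of Tim17b1 also lay in an intron of another gene, mtd.

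Counted over the 19 coding peaks of the IDR list, 9 summits lay in the first 10% of the coding sequence (47.4%, exact 95% interval 24.4 to 71.1), 5 in the last 10% and 5 between. Of the other coding peaks for which a coding frame held the summit, 66 of 306 lay in the first 10% (21.6%, 17.1 to 26.6), 43 in the last 10% and 197 between (64.4%). The share between those ends was 26.3% (9.15 to 51.2) in the IDR list, an interval that ends below that of the other coding peaks (58.7 to 69.7). This division was chosen after the values were seen. Few coding peaks were coding along their whole width: 96 of 326 (29.4%) lay wholly in exonic sequence of any kind, against 404 of 580 in 3' untranslated sequence (69.7%).

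Exonic peaks as a whole passed IDR less often than intronic peaks, and the intervals of the 3 exon classes overlapped one another. The share in the IDR list was 5.83% for coding peaks (19 of 326, interval 3.55 to 8.95), 5.86% for 3' untranslated peaks (34 of 580, 4.09 to 8.10) and 9.57% for 5' untranslated peaks (27 of 282, 6.40 to 13.6). Among the other peaks more than 500 bp from a TSS it was 11.9% in introns (1677 of 14074, 11.4 to 12.5), 8.58% in intergenic sequence (531 of 6191, 7.89 to 9.30) and 12.8% in exons of non-coding transcripts (43 of 337). Promoter peaks, within 500 bp of a TSS, passed in 23.9% of cases. The intervals of coding and 3' untranslated peaks thus ended below that of intronic peaks, and that of 5' untranslated peaks overlapped it. The intervals of all 3 classes overlapped that of intergenic peaks.

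**Figure D1:**
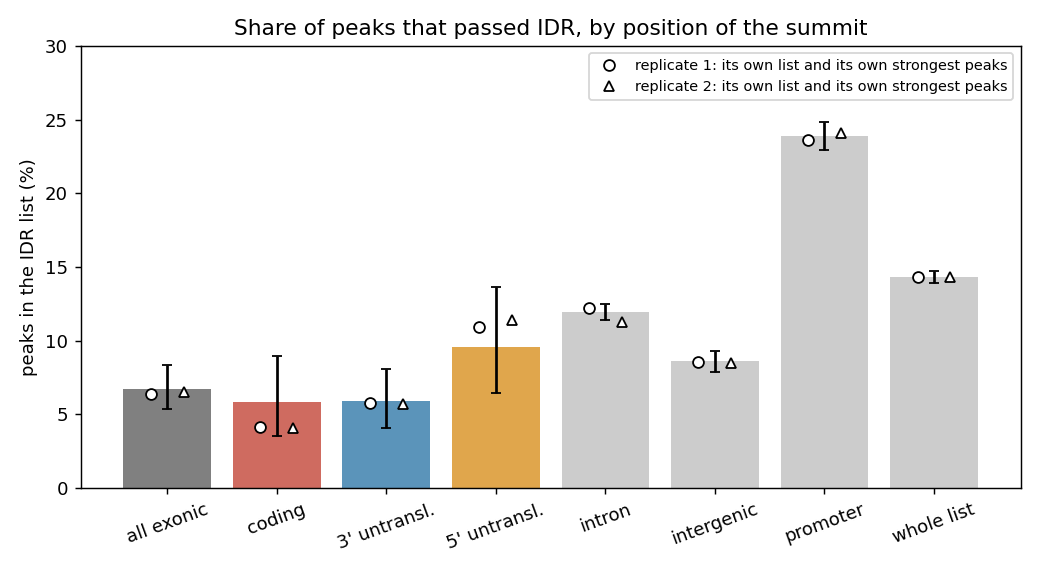
Percent of peaks in the pooled IDR list by position of the summit (bars, with exact 95% intervals), for exonic peaks, their 3 classes and the other peaks of the list. Open points give each replicate's own relaxed list, as the share among its own 4291 strongest peaks, and the coding and 3' untranslated points lie below the intron points in both replicates.

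Coding and 3' untranslated peaks lay below intronic peaks in each replicate taken alone as well, where the 4291 strongest peaks of a replicate stand in for the IDR list. All exonic peaks had a share of 6.37% in replicate 1 and 6.53% in replicate 2, against 12.2% and 11.3% for introns and 8.54% and 8.47% for intergenic sequence. Coding peaks gave 4.14% and 4.09%, 3' untranslated peaks 5.79% and 5.71%, and 5' untranslated peaks 10.9% and 11.4%, so in replicate 2 the 5' untranslated share stood at that of introns. The replicates differed from each other by under 1 percentage point in each of these shares.

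The signal value, the score that the authors' caller gave each peak and by which the IDR list is the strongest part of the pooled list, gives the same comparison on another scale. Its median was 51.8 over all exonic peaks, and 46.9 in coding, 50.9 in 3' untranslated and 62.9 in 5' untranslated sequence, against 57.7 in introns, 53.5 in intergenic sequence and 79.8 at promoters. Coding and 3' untranslated peaks thus had lower medians than introns, and 5' untranslated peaks a higher one. The 80 exonic peaks of the IDR list had a median of 205. The strongest exonic peak ranked 108 in the pooled list.

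**Figure D2:**
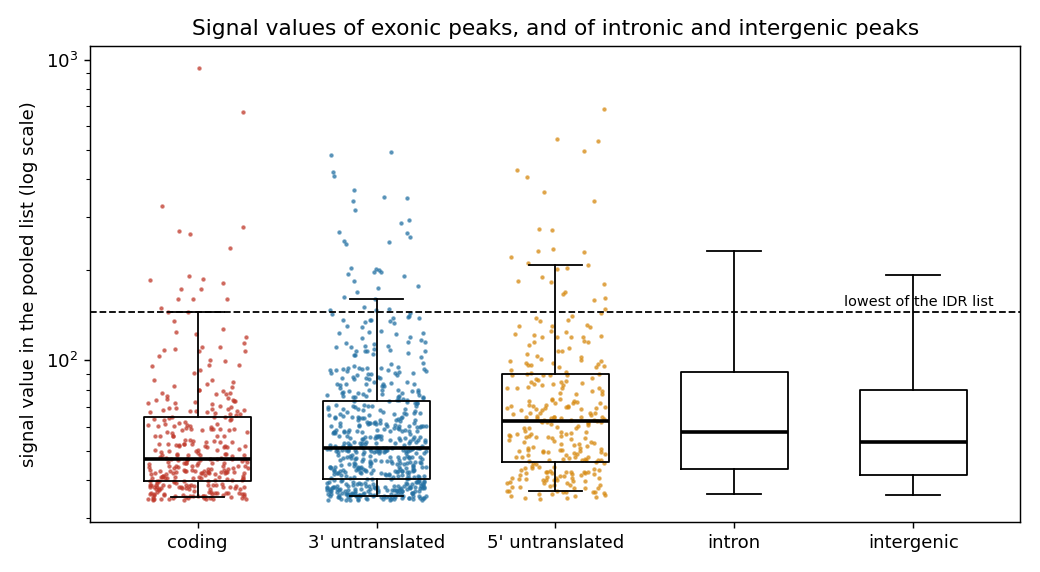
Signal values in the pooled relaxed list (log scale) by class of the summit: points are single exonic peaks, boxes give the quartiles with the median as a thick line, and whiskers the 5th and 95th percentiles. The dashed line is the lowest value of the IDR list, 144, and most exonic points lie below it.

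Summits were sparse in coding sequence for its length. Counted over the bases more than 500 bp from any TSS, the relaxed list had 18.6 summits per Mb of coding sequence (17.6 Mb), 85.6 per Mb of 3' untranslated sequence (6.77 Mb) and 270 per Mb of 5' untranslated sequence (1.04 Mb), against 266 per Mb of intron and 170 per Mb of intergenic sequence. In the IDR list the same densities were 1.08, 5.02 and 25.9 per Mb in coding, 3' and 5' untranslated sequence, against 31.7 in introns and 14.6 in intergenic sequence. In the relaxed list the 5' untranslated exons were thus about as dense in summits as introns, and coding exons were the sparsest class in both lists. The lists were not corrected here for how uniquely reads map.

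Base composition separated the exon classes. The median G+C content of the 201 bp around the summit was 51.2% in coding, 37.3% in 3' untranslated and 42.8% in 5' untranslated peaks, against 39.8% in intronic and intergenic peaks. Where G+C was under 40%, 7.34% of exonic peaks were in the IDR list (37 of 504, interval 5.22 to 9.98), against 15.8% of intronic peaks (14.95 to 16.6) and 11.5% of intergenic peaks (10.3 to 12.6). Where G+C was 40% to under 50%, the shares were 6.88% for exonic (28 of 407, 4.62 to 9.79), 7.94% for intronic (7.24 to 8.70) and 6.18% for intergenic peaks, and the exonic interval overlapped both others. Where G+C was 50% or more, the shares were 5.42% for exonic (15 of 277, 3.06 to 8.77), 5.44% for intronic and 4.70% for intergenic peaks, with overlapping intervals. The gap between exonic peaks as a whole and introns was therefore seen under 40% G+C. It was not detectable in the other 2 ranges at this number of peaks. Of the 504 exonic peaks under 40% G+C, 365 were 3' untranslated. Their share was 6.58% (24 of 365, 4.26 to 9.63), below the intronic interval. For 5' untranslated peaks it was 9.80% (10 of 102, 4.80 to 17.3) and for coding peaks 8.11% (3 of 37, 1.70 to 21.9). Both of these intervals overlapped that of introns, so by class the gap was seen for 3' untranslated peaks only.

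**Figure D3:**
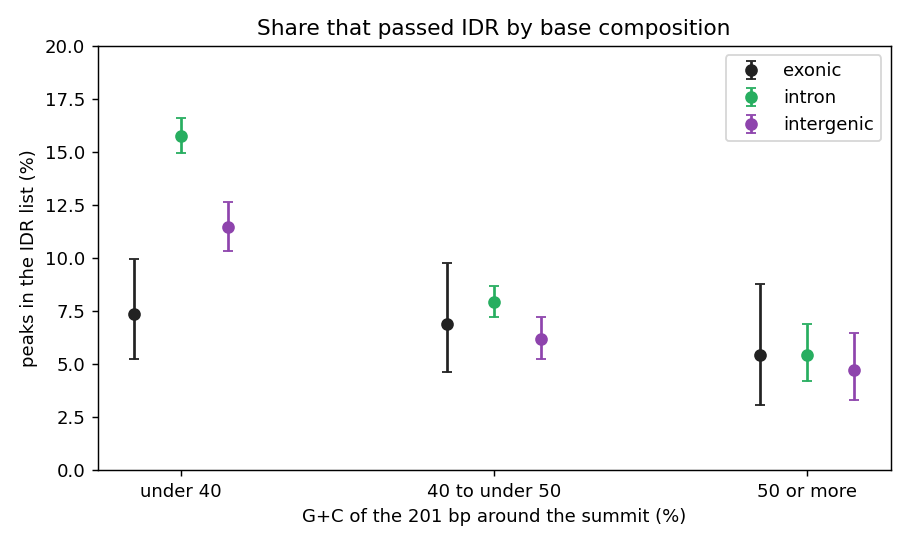
Percent of peaks in the IDR list by G+C content of the 201 bp around the summit, for exonic, intronic and intergenic peaks more than 500 bp from a TSS, with exact 95% intervals. Exonic peaks as a whole lie apart from intronic ones under 40% G+C, at 7.34% against 15.8%. Their intervals overlap with those of introns in the other 2 ranges.

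Each replicate showed the same for exonic peaks as a whole. Under 40% G+C, exonic peaks had a share of 6.80% in replicate 1 and 7.66% in replicate 2, against 16.3% and 14.8% for introns. At 40% to under 50%, they were 7.14% and 6.05%, against 7.86% and 8.04% for introns. At 50% or more, the exonic shares were 4.39% and 5.33%, against 5.99% and 5.51% for introns.

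The gap to introns was seen at each distance from the TSS up to 5000 bp. Between 500 and 1000 bp, 8.13% of exonic peaks passed IDR (interval 5.55 to 11.4), against 17.1% of intronic and 12.5% of intergenic peaks, and between 2000 and 5000 bp the shares were 5.09% (2.81 to 8.39), 12.1% and 8.84%. Beyond 5000 bp the shares were 5.11% (9 of 176, interval 2.36 to 9.49), 8.99% and 6.40%, and there the exonic interval overlapped that of introns. The exonic interval overlapped that of intergenic peaks at every distance.

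The 5' untranslated peaks split by whether the exon is one in every transcript. Of the 282, 142 lay where another annotated transcript has an intron, and 21 of these were in the IDR list (14.8%, interval 9.39 to 21.7), a share next to the background of the whole list. Of the 140 whose summit was exonic in every transcript over it, 6 were in the IDR list (4.29%, 1.59 to 9.09), and the intervals did not overlap. In replicate 1 alone the shares were 18.1% and 3.40%, and in replicate 2 alone 14.5% and 7.75%, with intervals that did not overlap in replicate 1 and did in replicate 2. Coding peaks showed no such split, with 5.13% of 78 against 6.05% of 248, and 3' untranslated peaks gave 7.45% of 94 against 5.56% of 486. Over all exonic peaks 314 (26.4%) were intronic in another transcript.

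Most 5' untranslated peaks of the IDR list were close to the limit of the rule. Of the 154 between 500 and 1000 bp from a TSS, 20 were in the IDR list (13.0%, interval 8.12 to 19.3), against 4 of 74 between 1000 and 2000 bp (5.41%). With the limit at 1000 bp, the 5' untranslated share in the IDR list was 5.47% (7 of 128). The values just inside the limit were those of summits in Atf3, a basic leucine zipper factor, and Arp2, an actin nucleator, both 504 bp from a TSS at ranks 8089 and 27018, and in fz, a Wnt receptor, at 505 bp and rank 5752. Just outside, exonic summits 500 bp from the TSSs of DCP2, Kank and Ptp36E had ranks 7918, 23879 and 26269. A strong promoter peak close by was uncommon: 60 members (5.05%) had an IDR promoter summit within 1000 bp, 6 of them in the IDR list themselves, and without these 60 the share in the IDR list was 6.56%.

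The strongest 5' untranslated peak lay in Raf, the kinase that links Ras to MAP kinase signalling, with a signal value of 352 in replicate 1, 337 in replicate 2 and 684 in the pool, where it ranked 244. Signal values of a replicate and of the pool are on different scales, so ranks are compared across lists. Raf ranked 261 in replicate 1 and 225 in replicate 2. Its summit lay 10 bp from the edge of an exon of 200 bp, and 46.5% of the peak was exonic. Pdp1, a basic leucine zipper factor of the circadian clock, ranked 489 and 348 in replicates 1 and 2, with its summit 524 bp from the nearest TSS. The kinase gene dop ranked 567 and 374, and baz, whose product Bazooka (Par-3) organises cell polarity, ranked 739 and 395. These sites were among the strongest of the exonic peaks in both replicates.

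The other hosts among the 10 strongest 5' untranslated peaks were SREBP, a regulator of lipid synthesis, at pooled rank 665, dos, an adaptor of receptor tyrosine kinases, at 715, Fbl6 at 908, CAP, an adaptor at integrin adhesions, at 1021, Mef2, the muscle differentiation factor, at 1465, and drn at 1490. Of the SREBP peak 52.5% was exonic, and an IDR summit that was not a member lay 202 bp from its summit. The summit of Mef2 ranked 1265 in replicate 1 and 2074 in replicate 2. CAP, dos and baz each had a second summit in the IDR list. The second summit of dos, at pooled rank 3429, ranked 3311 in replicate 1 and 23234 in replicate 2, and it shared a region with the first.

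In coding exons, Pde1c and otp stood above the rest. The summit of Pde1c (signal values 482 in replicate 1, 464 in replicate 2 and 941 in the pool) ranked 115 and 102 in replicates 1 and 2, and the peak, at chr2L:11816395-11816761, lay in the last exon of its transcript, 2791 bp from the nearest TSS. The summit of otp, which encodes a homeodomain factor of the nervous system and hindgut, had signal values of 368, 296 and 669 in replicate 1, replicate 2 and the pool, at ranks 235, 310 and 259. It lay in coding sequence at codon 386 of 416, in the last exon, 4656 bp from the nearest TSS. For both genes every annotated transcript over the summit (9 of 9) had it in an exon.

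The next coding peak, in l(3)mbn, ranked 1078 in the pool, 1157 in replicate 1 and 1306 in replicate 2. The remaining coding hosts of the first 10 were CG4230, CG5895, bif, bun, Sdb, Tim17b1 and TpnC73F, at pooled ranks 1442 to 2879. Their replicates were further apart than those of Pde1c, with bif at 1252 in replicate 1 and 2351 in replicate 2, and TpnC73F at 4974 and 2241.

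In 3' untranslated sequence the highest ranks were those of stas (451 in replicate 1, 574 in replicate 2, 499 in the pool) and CG7872 (490, 572 and 528 in the same order). The summit of sv, which encodes a Pax2 homologue of sense organs, ranked 862 and 659 in replicates 1 and 2 and lay on chromosome 4, 9665 bp from the nearest TSS, in exons of 2 genes, so its host is uncertain. Hr4, a nuclear receptor of the ecdysone response, ranked 869 and 1296, and by, the fly tensin, 1101 and 1353. The others of the first 10 were CG33307, scf, CG9166, CG5984 and CG7778, at pooled ranks between 685 and 1319. The summit of stas was intronic in another transcript of stas. Those of CG33307 and CG9166 also lay in introns of other genes, CenG1A and Ptp61F. Of the 580 3' untranslated summits, 95.9% lay in the last exon of the host transcript.

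**Figure D4:**
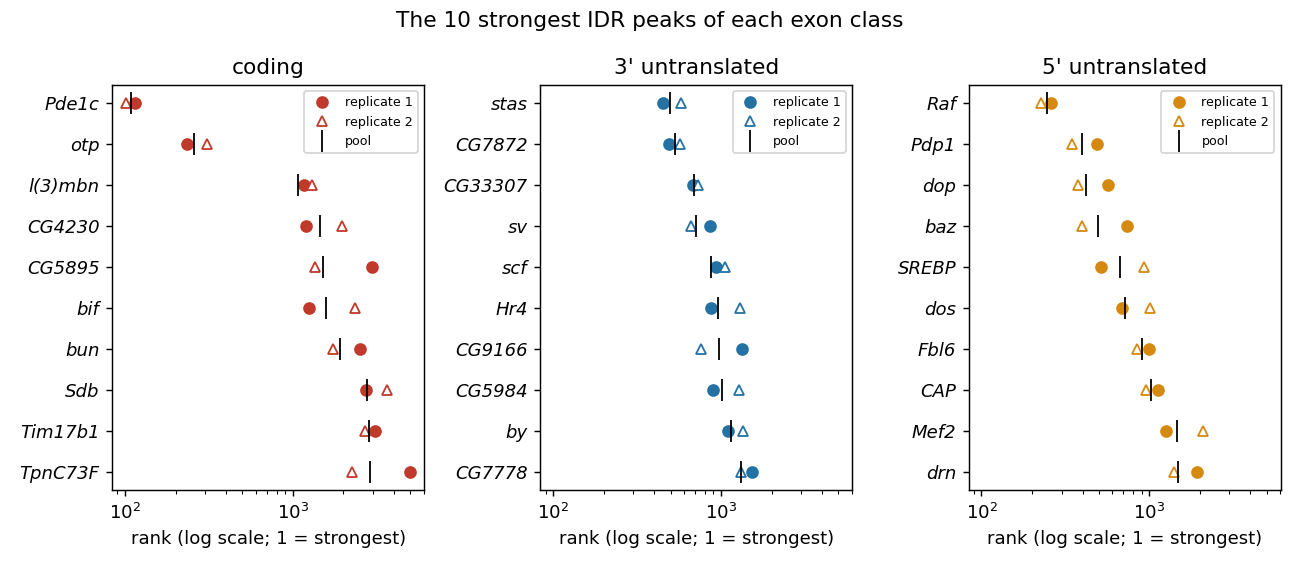
Ranks (log scale, 1 is the strongest) of the 10 strongest IDR peaks in each exon class, in replicate 1 (filled), replicate 2 (open) and the pooled list (bars). Pde1c and otp lead the coding class, and the replicates of the leading peak of each class lie close together.

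Agreement between replicates was lower for exonic peaks as a whole than for other peaks. A summit within 100 bp was found in the relaxed lists of both replicates for 417 exonic peaks (35.1%, interval 32.4 to 37.9), in 1 replicate for 612 and in neither for 159. The share in both was 30.4% for coding, 34.1% for 3' untranslated and 42.6% for 5' untranslated peaks, against 42.2% (41.5 to 42.8) for intronic and intergenic and 53.6% for promoter peaks. Within ranges of rank the shares were closer. Among peaks below the IDR list but within the strongest 15000 of the pool, 69.3% of 368 exonic peaks were matched in both (64.3 to 73.97), against 69.98% of 6851 intronic and intergenic peaks. Among the 15000 weakest the shares were 11.4% of 740 (9.16 to 13.9) and 15.01% of 11206 (14.4 to 15.7), and over the strongest 15000 they were 74.3% and 75.7%. These ranges of rank, apart from the strongest 15000, were chosen after the values were seen.

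Over peaks matched in both, Spearman's rho of the 2 signal values was 0.596 for exonic peaks (n = 417) and 0.689 for intronic and intergenic peaks (n = 8544), a description across peaks that share 2 libraries.

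Of the 80 exonic peaks of the IDR list, 78 were matched in both replicates (97.5%, interval 91.3 to 99.7). For intronic and intergenic peaks of the IDR list it was 2068 of 2208 (93.7%, 92.6 to 94.6), and the intervals overlapped. The IDR filter keeps peaks that repeat, so high shares are built in. The exonic exceptions were both in 3' untranslated sequence. Madm, an adaptor with a kinase-like domain, ranked 1730 in the pool and 1809 in replicate 2 and had no summit within 100 bp in replicate 1. Inx2, a gap junction protein, ranked 4151 in the pool and 2918 in replicate 1 and had none in replicate 2. Within the 4291 strongest peaks of each replicate, 52 of the 80 were found in both, 27 in 1 and 1 in neither, the summit of btsz, which is also the last peak of the IDR list.

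**Figure D5:**
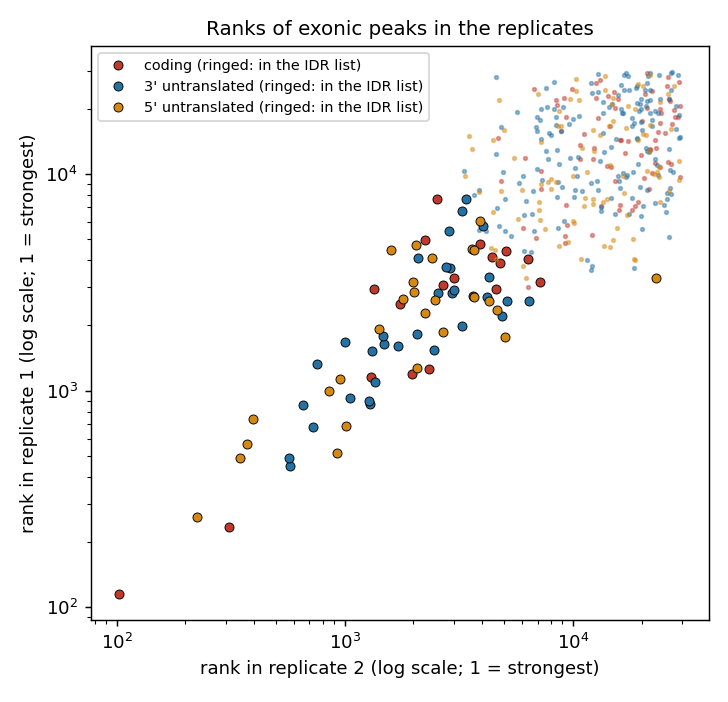
Rank in replicate 1 against rank in replicate 2 (log scales, 1 is the strongest) for exonic peaks matched in both replicates, coloured by class, with peaks of the IDR list ringed. The 2 coding peaks at the lower left are Pde1c and otp, and the ringed point far to the right is the second summit of dos.

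The strongest exonic peaks outside the IDR list were close to its lower edge. In 5' untranslated sequence these were grp, the checkpoint kinase Chk1, at pooled rank 4300, Octbeta2R, an octopamine receptor, at 4458 and eas, an ethanolamine kinase, at 4553. In 3' untranslated sequence they were laza, a lipid phosphatase, at 4303, Tctp at 4372 and RpS23 at 4484, and in coding sequence bif at 4699, CG31259 at 5155 and hep, a kinase that activates JNK, at 5388. The summit in Tctp ranked 3434 in replicate 1 and had no match in replicate 2, whereas that in RpS23 ranked 5186 and 5335.

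Single genes rarely held many exonic summits. Of the 856 host genes 635 had 1 summit, 156 had 2 and 65 had more. The most, 10, lay in corto, which encodes a partner of Polycomb and trithorax proteins, 7 of them in 3' untranslated and 3 in coding sequence. None of the 10 was in the IDR list, and the best ranked 9390 in the pool. CAP, bun and spen, a repressor with RNA-binding domains, had 6 each, with 2, 1 and 1 in the IDR list. Pdp1 had 5, as did 8 other genes. The 6 of spen all lay in 5' untranslated sequence, in 3 regions, so neighbouring summits there are not separate sites in full.

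The genes that host exonic summits were long. Of 13945 protein-coding genes, 856 (6.14%) hosted an exonic summit and 77 (0.552%) one in the IDR list, and the hosts had a median of 3064 bp of exonic sequence more than 500 bp from a TSS, against 1094 bp for the other genes. The median length of such exon is therefore given beside the counts of each gene list below. Whether the counts follow that length was not tested, and no count was tested.

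The best exonic summit of each segmentation gene that had one ranked between 6460 and 28934 in the pool. The median rank of all exonic peaks was 18414.5. None of these genes had an exonic summit in the IDR list. Only 0.552% of all protein-coding genes have one there, so that 0 among so few genes says little. An exonic summit in either list was held by 6.14% of all protein-coding genes. In the odd family, drm and odd had summits (2 of 4 genes, median 2268.5 bp of such exon). The coding summit of odd itself ranked 14808 in the pool and 12863 in replicate 2, with no match in replicate 1, and lay 1204 bp from the TSS. The best of 3 summits in drm, also coding, ranked 6460 in the pool, 14700 in replicate 1 and 4717 in replicate 2. Of 9 pair-rule genes ftz, odd and opa had 1 summit each (median 1845 bp), at ranks 14499, 14808 and 28934. The gap list had cad alone among 11 genes (median 1977 bp), at rank 19596. The segment polarity list had mid, H15 and ptc among 11 (median 2428 bp), at ranks 17420 to 28697. Since all these peaks lay outside the IDR list, they may include background.

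Hox genes and genes of hormone response, muscle and polarity gave the following counts. Of all protein-coding genes, 6.14% had an exonic summit and 0.552% one in the IDR list. Of 8 Hox genes, pb, Ubx, Scr and Abd-B had a summit (median 3504 bp), none in the IDR list and the best, in pb, at rank 15117. Of 11 genes of the ecdysone response 5 had one (median 8445 bp): Hr4 in the IDR list at rank 961, and ftz-f1, EcR, Hr3 and Eip74EF outside it. The nuclear receptor gene ftz-f1 had 5 summits, the best at rank 6422. Of 20 genes of the contractile apparatus 7 had a summit (median 1597.5 bp), with TpnC73F in the IDR list and Tm1 and Tm2, which encode tropomyosins, at ranks 11969 and 11974. In the polarity and septate junction list 5 of 20 had one (median 4873 bp), baz in the IDR list and shg, the fly E-cadherin, at rank 7740, scrib at 10847, and dlg1 and Atpalpha lower still.

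The next lists are set beside the same shares of all protein-coding genes, 6.14% with an exonic summit and 0.552% with one in the IDR list. In the mesoderm and heart list 5 of 16 genes had a summit (median 1705 bp), with Mef2 in the IDR list and Doc1 and how at ranks 10434 and 16731. In the neural list 2 of 17 had one (median 1929 bp). The homeodomain gene pros had a 3' untranslated summit in the IDR list at pooled rank 1741, 1537 in replicate 1 and 2457 in replicate 2. The RNA-binding protein gene elav had 5 summits, the best at rank 6458. Of 13 Egfr, Dpp and Toll genes 5 had one (median 3115 bp), led by aop, the ETS repressor Yan, at 5046, then sog and aos. Of 15 cytoskeletal genes 6 did (median 1921 bp), led by chic, the fly profilin, at 5344, then shot and sqh, and of 13 Notch and E(spl) genes 3 did (median 804 bp), E(spl)mbeta-HLH, E(spl)m8-HLH and Ser.

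The remaining lists are set beside the 6.14% of all protein-coding genes. Of 86 genes of cytosolic ribosomal proteins 5 had an exonic summit (5.81%), of which RpS23, RpL17 and RpL5 ranked highest, and of 73 mitochondrial ones none did, with medians of 292 and 335 bp of such exon. No gene of the translation factor list (12 genes, 1532.5 bp) or of zygotic cellularisation (7 genes, 527 bp) had one. Of 119 odorant and gustatory receptor genes Gr89a and Gr39b had one (708 bp), of 70 cuticle protein genes Cpr62Ba (474 bp) and of 20 heat shock genes Hsc70-3 (1561.5 bp). Of 21 Polycomb and trithorax genes only Su(z)2 had any (4823 bp), at a best rank of 5924, and of 13 basement membrane genes wb and trol did (15.4%, 5892 bp). None of the genes in these lists had an exonic summit in the IDR list. Since only 0.552% of all protein-coding genes have one, this says little.

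The word of Odd, ACAGTAGC, was rare under exonic summits and over the whole list. Both strands were searched up to 100 bp away from each summit, for it and for the words of other factors. It occurred in 12 of 1188 exonic peaks (1.01%, interval 0.523 to 1.76), against 0.592% of intronic and intergenic peaks (0.491 to 0.708) and 0.580% of the whole list. Windows of the same length centred 1000 bp to either side of the exonic summits held it in 4 and 3 cases. In the IDR list it lay in 3 of 80 exonic peaks (3.75%, 0.780 to 10.6), against 0.906% of intronic and intergenic ones (0.554 to 1.40), and in none of the flanks of those 80. The intervals overlapped in both comparisons. In replicate 2 alone the exonic share was 1.25%, and in replicate 1 alone 3.30%.

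The 3 hosts in the IDR list were bun and jing, both in coding sequence, and CG15283 in 3' untranslated sequence, at pooled ranks 1910, 4051 and 4179. The middle of the word lay 45, 40 and 31 bp from their summits. It is shown for bun and CG15283 and for 3 peaks outside the IDR list, chosen after their values were seen: CG33181, the nuclear receptor gene Hnf4 and the small GTPase gene Rac2. These have pooled ranks of 9672, 15714 and 24284, and the middle of the word lies 26, 70 and 2 bp from the summit. Each line runs 5' to 3' on the strand that carries the word, on dm6, with the word in capitals, and the coordinates are those of the word.
bun, word at chr2L:12498776-12498783, minus strand: gcatggcggcaACAGTAGCaacaaaatggc
CG15283, word at chr2L:14450351-14450358, minus strand: aactgtgcgctACAGTAGCcacggaatcca
CG33181, word at chrX:8491968-8491975, plus strand: gcagccgtttaACAGTAGCggtgcccacag
Hnf4, word at chr2L:8690125-8690132, minus strand: gggactgagcaACAGTAGCaaccagagcag
Rac2, word at chr3L:7434518-7434525, minus strand: gtaccaccagtACAGTAGCcttcatcatgc

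Among the other words, GAGAG, bound by GAGA factor, lay in 30 of 80 exonic peaks of the IDR list (37.5%, interval 26.9 to 49.0), against 25.2% of intronic and intergenic ones (23.4 to 27.1) and 24.96% of the whole list, with overlapping intervals for the exonic and the other IDR peaks. The flanks of those 80 held it in 22 and 9 cases. Over all exonic peaks its share was 24.3%, against 23.3% for intronic and intergenic peaks. The word of the early activator Zelda, CAGGTAG, lay in 13 exonic peaks (1.09%, against 1.25%), and in the IDR list in 1, the 3' untranslated peak of CG7872. The promoter word TATAAA lay in 22.5% of the exonic IDR peaks (13.9 to 33.2), against 34.1% of intronic and intergenic ones (32.1 to 36.1), with overlapping intervals. By class TATAAA lay in 1 of 19 coding, 11 of 34 3' untranslated and 6 of 27 5' untranslated IDR peaks. TATCGATA, the DNA replication-related element of promoters, lay in none of the 80, against 0.272%, and CANNTG, the E-box, in 56.2% against 61.6%.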

How the data were processed

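Odd-GFP ChIP-seq peak lists of 2 biological replicates were analysed. Per the records deposited beside them, a relaxed list was made for each replicate and for both together, in each case against a control, and these 3 lists gave the IDR list. Peak caller, aligner and IDR threshold: not given in the sources used here. As deposited, the signal value is a score that the authors' caller gave each peak; it served to order peaks inside 1 list and to choose the strongest. Summits come from another deposited column, the offset from the peak start, and 97.3% of member summits were the peak midpoint within 1 bp. Lists on dm3 were not used.

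Summits were classed from Ensembl release 115 without transposable elements, in the order 5' untranslated, 3' untranslated, coding, exons of non-coding transcripts, intron, intergenic. Coordinates are 1-based on dm6, and sequence came from NCBI Release 6, where 99.8% of annotated start codons read ATG. Shares carry exact 95% binomial (Clopper-Pearson) intervals from SciPy 1.17.1 under Python 3.11.15, for counting error only. The functions were tested on simulated data. Summits within 100 bp were matched.

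The members, gene lists and words were chosen with earlier results of these data known. Genes named are hosts of the 10 strongest IDR peaks and the 3 strongest other peaks of each class, the 5 genes with most summits, up to 3 genes per list, peaks at the distance limit and IDR peaks with the Odd word; Abd-B, dlg1, Atpalpha, Hr3, Eip74EF, Madm, Inx2 and btsz were named after their values were seen. Of the gene lists' symbols, 7 were matched through RefSeq's synonyms, and gk, which names another gene there, was left out. Alternatives were other distance limits, the midpoint, 1 summit per region, single replicates, other class orders, other list lengths and other windows.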

Additional observations from a re-analysis of the deposited data

How the results depend on the processing

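Of 93 values over 13 results and the alternatives other than the midpoint, 60 stayed within the 95% interval of the share reported, within 1.5 times the count or, for the median signal, within 1 SD between the replicates' medians (2.65), and 33 did not. The 11 values at the midpoint are not counted, since 97.3% of member summits are the midpoint already. Exonic peaks stayed below intronic and intergenic ones in the share that passed IDR under the 6 alternatives that gave both. With a limit of 250 bp around a TSS, 39.7% of exonic peaks were 3' untranslated and 35.0% 5' untranslated, 29.8% were intronic in another transcript, the median signal in the IDR list was 220.04 and 11.99% of intronic and intergenic peaks passed IDR. With 1000 bp the shares were 57.0% and 15.6%, with 5.47% of 5' untranslated and 10.2% of intronic and intergenic peaks in the IDR list. With 1 summit per region the last share was 12.8%. With exons of non-coding transcripts included, coding, 3' and 5' untranslated shares were 21.4%, 38.0% and 18.5%, with a median signal of 215. The stronger part of the IDR list held 3.20% of exonic, 2.15% of coding, 2.93% of 3' untranslated, 4.96% of 5' untranslated and 4.96% of intronic and intergenic peaks, with a median of 321. Among the strongest 15000 peaks, 448 were exonic (21.0% coding, 45.8% 3' and 33.3% 5' untranslated), 74.3% had a summit in both replicates and 35.3% were intronic in another transcript. Matching within 50 or 200 bp gave 23.5% and 44.9% in both replicates.

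In single replicates (each left out in turn) the number of exonic peaks was 1226 to 1428, the share in the strongest peaks 6.37% to 6.53%, the coding share 29.9% to 30.5%, 3' untranslated 47.1% to 48.4%, 5' untranslated 21.1% to 22.9%, the median signal 104 to 108, on a smaller scale than in the pool, and intronic and intergenic peaks 10.4% to 11.1%. The cause of these shifts was not tested. No paired analysis was possible because there is 1 group. Depth is unknown, so a site absent from a list may have been below detection, and a score cannot be compared between lists.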

Other observations

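Chromosome 4, the small and largely heterochromatic chromosome of the fly, held exonic peaks at a higher density than the other arms. It had 31 of them (85.8 per Mb of exonic sequence away from start sites), against 41.7 to 51.5 per Mb on the other arms, and they made up 11.7% of its peaks in the relaxed list, against 3.32% to 5.04%. In the IDR list were 2 of the 31 (6.45%, exact 95% interval 0.791 to 21.4), against 6.73% of all exonic peaks. This pattern was seen in the same data and was not tested.

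Hosts without introns accounted for 74 exonic peaks, 58 of them in 3' untranslated sequence. Of the 74, 7 were in the IDR list (9.46%, exact 95% interval 3.89 to 18.5), against 6.73% of all exonic peaks. All 7 were among the 58 in 3' untranslated sequence (12.1%, 4.99 to 23.3), where 5.86% of all peaks were in the IDR list. None were among the 13 in coding or the 3 in 5' untranslated sequence. Both intervals held the share they are set against, and this split was not tested. In 27 cases the summit lay in exons of more than 1 gene, so the host is uncertain there.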
